A study of Mus musculus with 12 samples.

Results

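Integrins are cell surface receptors built from an alpha and a beta subunit, and laminins are basement membrane proteins built from an alpha, a beta and a gamma chain. The genes described here are the 31 integrin and laminin genes that encode neither the hemidesmosomal integrin alpha6beta4 nor the chains of its laminin ligand. They were taken by gene symbol from the expression tables of mouse hair follicle stem cells (HFSCs). The Eed iKO table lists 17885 genes, among them 30 of the 31, and the hair cycle table lists 21915 genes and all 31. Itgax, a leukocyte alpha subunit, is not analysed here for Eed iKO.

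The partner beta subunit decides much of what an integrin does. Integrins with beta1 bind collagens, laminins or fibronectin and link them to actin at focal adhesions. Integrins that pair alphav with beta6 or beta8 bind the latent complexes of TGF-beta and can free the growth factor, and beta6 is known as a subunit of epithelia. Laminins with the gamma1 chain, such as the one of alpha5, beta1 and gamma1, lie in the basement membrane beside the hemidesmosomal laminin, and HFSCs rest on that membrane in the bulge of the follicle. Leukocytes carry their own subunits, among them beta2, beta7, alphaL, alphaM, alphaX and alphaE.

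RNA-seq was made from HFSCs that were sorted from back skin of C57BL/6J mice as EpCAM+, Sca1-, alpha6-integrin high and CD34+ cells, in 4 groups of 3 libraries. Control (labelled wildtype) and Eed iKO (labelled Eed -/-) HFSCs came from mice at postnatal day 70. Eed encodes a core subunit of Polycomb repressive complex 2 (PRC2), which places the repressive mark H3K27me3. In the Eed iKO mice a K15 promoter drives the hormone-inducible recombinase CrePGR in the bulge, the Eed alleles are floxed, and RU-486 at 10 mg/ml on the skin, daily for 7 days from day 50, induced deletion. Per the study's methods, control mice received the ethanol vehicle alone. The hair cycle groups were wildtype HFSCs in anagen, the growth phase, at day 28 to 30, and in telogen, the resting phase, at day 50 to 52, so that hair cycle phase and age cannot be told apart. Alpha6-integrin and CD34 set the sorting gate, and neither is among the 31 genes.

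Values are the authors' normalized counts, which correct for library size but not for gene length. For levels of different genes they were divided by the length of the longest coding transcript, giving a normalized count per kb. Each table was normalized on its own, so levels are compared only within a table. Differences are log2 fold changes of normalized count + 1, Eed iKO over control or anagen over telogen, tested with limma across all genes that passed a filter on low counts, with Benjamini-Hochberg adjustment. The thresholds of the study's methods (unadjusted p under 0.05 and an absolute log2 fold change over 1.5 for Eed iKO and over 2 for the hair cycle) are counted beside an adjusted p under 0.05. The filter left 26 of the 31 genes tested for Eed iKO (19 integrins and 7 laminins) and 21 for the hair cycle (16 integrins and 5 laminins). Itga8, Itgae, Itgb2 and Lamc3 were under it in the Eed iKO table, and Itga11, Itgal, Itgax, Itgae, Itgb2, Itgb3, Itgb7, Lama1, Lama2 and Lamc3 in the hair cycle table.

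In the Eed iKO table the values are whole multiples of what a read is worth and give back 33269583 to 57063586 reads a library. In the hair cycle table only 19.2% to 32.4% of values are such multiples and the depth is unknown. The 12 HFSC and gate markers examined were all present. Eed itself had normalized counts of 1084, 1249 and 950.2 in controls and 933, 1361 and 1001 in the libraries labelled Eed iKO, a log2 fold change of −0.01 (adjusted p = 0.993), in a count that does not separate deleted from remaining exons. The study reports lower Eed mRNA in sorted Eed iKO HFSCs by RT-qPCR. It also reports loss of H3K27me3 in them at day 70 by immunofluorescence. The telogen 1 library stands apart: its HFSC markers summed to a normalized count of 239593, against 536338 to 668116 in the other hair cycle libraries. Where a log2 fold change rests on it, the value without it is given. In bulk RNA, fewer cells of a type and less RNA per cell cannot be told apart.

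Among the beta subunits described here, which leave out beta4, Itgb1 had the highest level per kb in both tables and Itgb6 the next. In the Eed iKO table Itgb1 had 3227 ± 462 (SD, n = 3) normalized counts per kb in controls, Itgb6 1299 ± 429, Itgb5 632 ± 57.3 and Itgb8 295 ± 75.9. Beta1 joins most alpha subunits, whereas beta5, beta6 and beta8 are partners of alphav. Each of these neighbours differed by more than the spread of its libraries. Of the alpha subunits described here, which leave out Itga6, Itga3 (laminin binding), Itgav and Itga2 (collagen binding) led. They had 2437 ± 641, 1639 ± 69.7 and 1376 ± 229 normalized counts per kb. Itga3 reached 0.412, 0.546 and 0.674 of the Itga6 level per kb in the controls. The ranges of Itgav and Itga2 overlapped over the 3 controls. Itga5, the fibronectin receptor subunit, followed at 572 ± 236.

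In the hair cycle table the order of the telogen levels was Itgb1 at 1289 ± 158, Itgb6 at 568 ± 54.4, Itgav at 434 ± 44.0, Itga2 at 301 ± 66.2 and Itga3 at 134 ± 11.6 normalized counts per kb (SD, n = 3). The chains of the hemidesmosomal laminin were not ranked. Of these, Lama3 and Lamb3 lay above Lamc1 (gamma1) per kb in every control and telogen library. Of the laminin chains described here, Lamc1 had the highest mean level per kb in both tables. It had 838 ± 30.4 in controls and 152 ± 36.2 in telogen. It was followed by Lamb2 and Lama5 in controls (606 ± 114 and 510.2 ± 111, which overlap) and by Lama5 and Lamb2 in telogen (99.7 ± 87.9 and 79.6 ± 71.9, which overlap and reach as far as Lamc1). In both tables the leukocyte subunits Itgal, Itgam, Itgae, Itgb2 and Itgb7 and the chains Lama1, Lama2 and Lamc3 stayed under 15 normalized counts per kb in every library. The plot of levels shows a continuous run of genes between these ends.

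**Figure D1:**
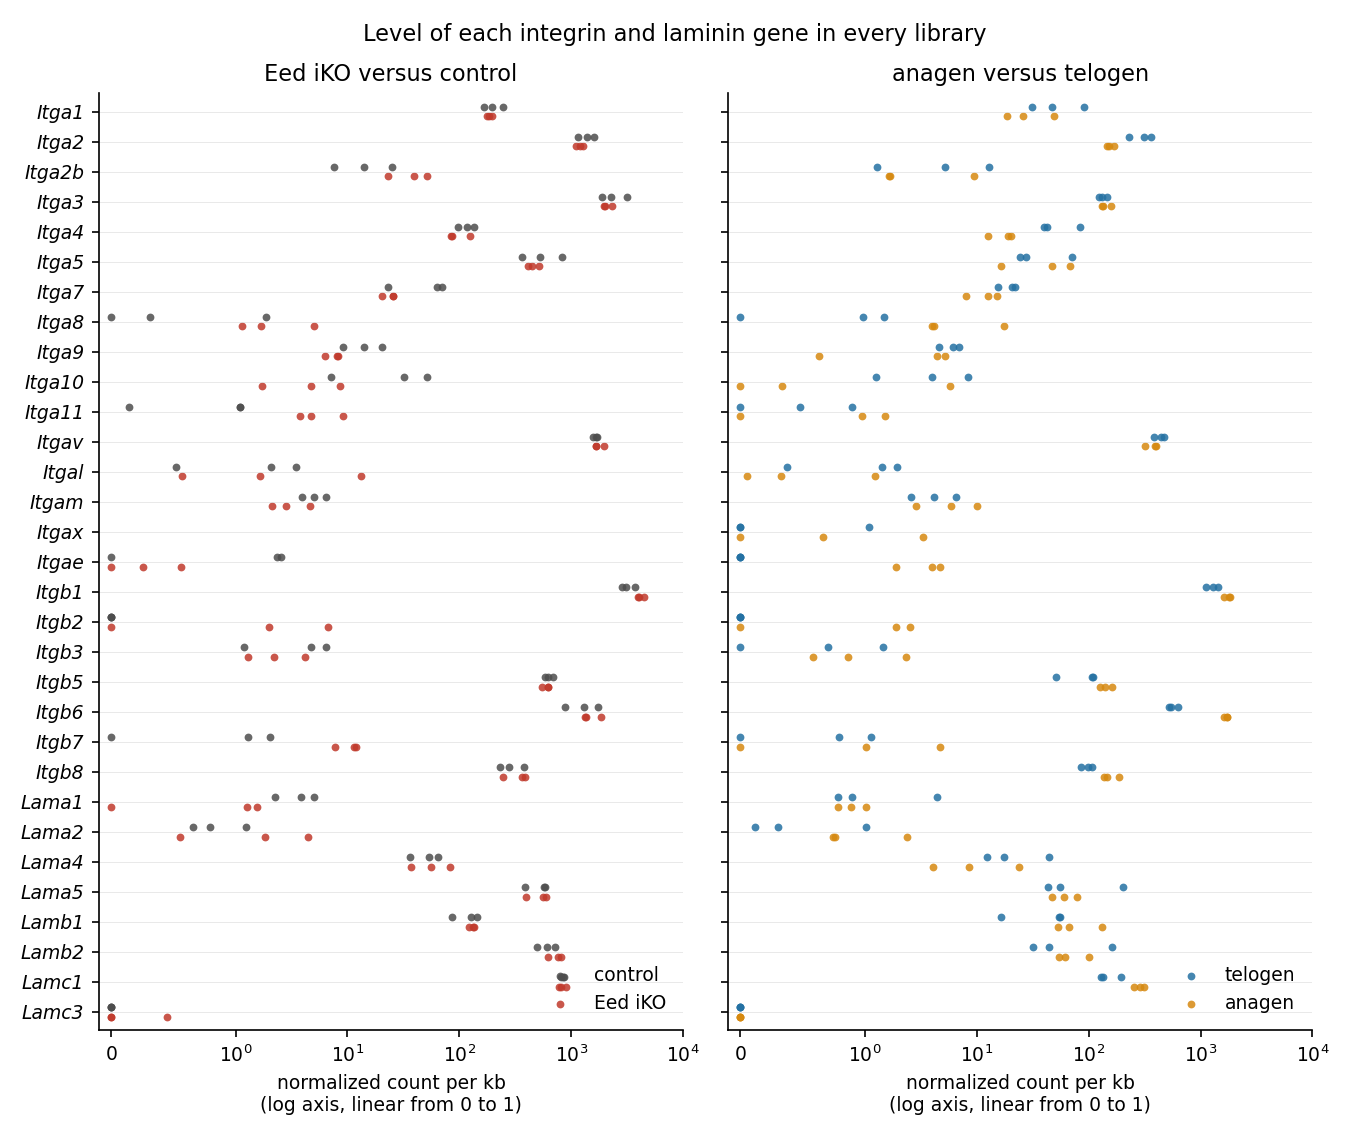
Normalized count per kb of the 31 genes (rows) in every library (points), for control and Eed iKO on the left and telogen and anagen on the right, on a log axis that is linear from 0 to 1. Itgb1, Itgb6, Itgav, Itga2, Itga3 and Lamc1 sit at the right in both panels, and the leukocyte subunits lie near 0.

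In anagen, 4 of the 21 tested genes had an adjusted p under 0.05 in limma, Itgb6 and Lamc1 higher and Itga2 and Itga4 lower. Of all 13457 genes tested 11.6% were called by that rule, 7.22% higher and 4.35% lower, and 4 of 21 is not read as particular to these genes. At the study's thresholds 1 gene passed, Itga8, higher in anagen, where 5.1% of all genes did (3.33% higher and 1.77% lower). Telogen and anagen libraries did not overlap for 9 of the 21 genes, 6 higher and 3 lower in anagen, against 33.3% of all genes (18.1% higher and 15.2% lower). The median log2 fold change of the 21 genes was 0.07, that of all genes 0.01.

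Itgb6, the beta6 subunit, showed the largest change among the genes of high level. Its normalized counts were 2526, 2637 and 3024 in telogen libraries and 7783, 8316 and 8290.3 in anagen libraries. The lowest anagen library lay far above the highest telogen library. The log2 fold change was 1.58 (SE 0.17, adjusted p = 0.000214), or 2.99-fold. Itgb6 lies at chr2:60598292-60722643 on the minus strand (mm10, GENCODE).

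The other beta subunits moved less. Itgb8, which with alphav also binds latent TGF-beta, had 719, 905 and 836 normalized counts in telogen libraries and 1236, 1569.8 and 1147 in anagen libraries. All anagen values were above all telogen values, and the log2 fold change of 0.68 (SE 0.21) missed the threshold (adjusted p = 0.0645). Itgb5, whose alphavbeta5 dimer is a vitronectin receptor, had 168, 358 and 352 in telogen and 419, 535 and 455 in anagen. The groups did not overlap, but telogen 1 was the low library, and the log2 fold change of 0.75 (adjusted p = 0.165) was 0.39 without it. Itgb1 had 4305, 5509.9 and 4937 normalized counts in telogen libraries and 6956, 6799.9 and 6133 in anagen libraries. It too did not overlap, with a log2 fold change of 0.44 (SE 0.17, adjusted p = 0.132). Itgav, the alpha subunit that beta5, beta6 and beta8 share, had 2729, 3346 and 3102 in telogen and 2790.5, 2830.3 and 2255 in anagen. These overlapped, and its log2 fold change was −0.22 (95% interval −0.63 to 0.18, adjusted p = 0.470).

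The make-up of the alphav partners followed from these values. Of the summed normalized count per kb of Itgb3, Itgb5, Itgb6 and Itgb8, Itgb6 held 79.2%, 71.7% and 75.2% in the telogen libraries and 85.5%, 83.1% and 86.2% in the anagen libraries. All anagen shares were above all telogen shares. The ratio of Itgb6 to Itgav per kb was 1.36, 1.16 and 1.43 in telogen and 4.09, 4.31 and 5.40 in anagen. Per kb Itgb6 thus reached 0.888, 0.971 and 1.07 of the Itgb1 level in anagen, from 0.466, 0.380 and 0.486 in telogen. These are transcript ratios, given without a test, and dimers were not measured.

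**Figure D2:**
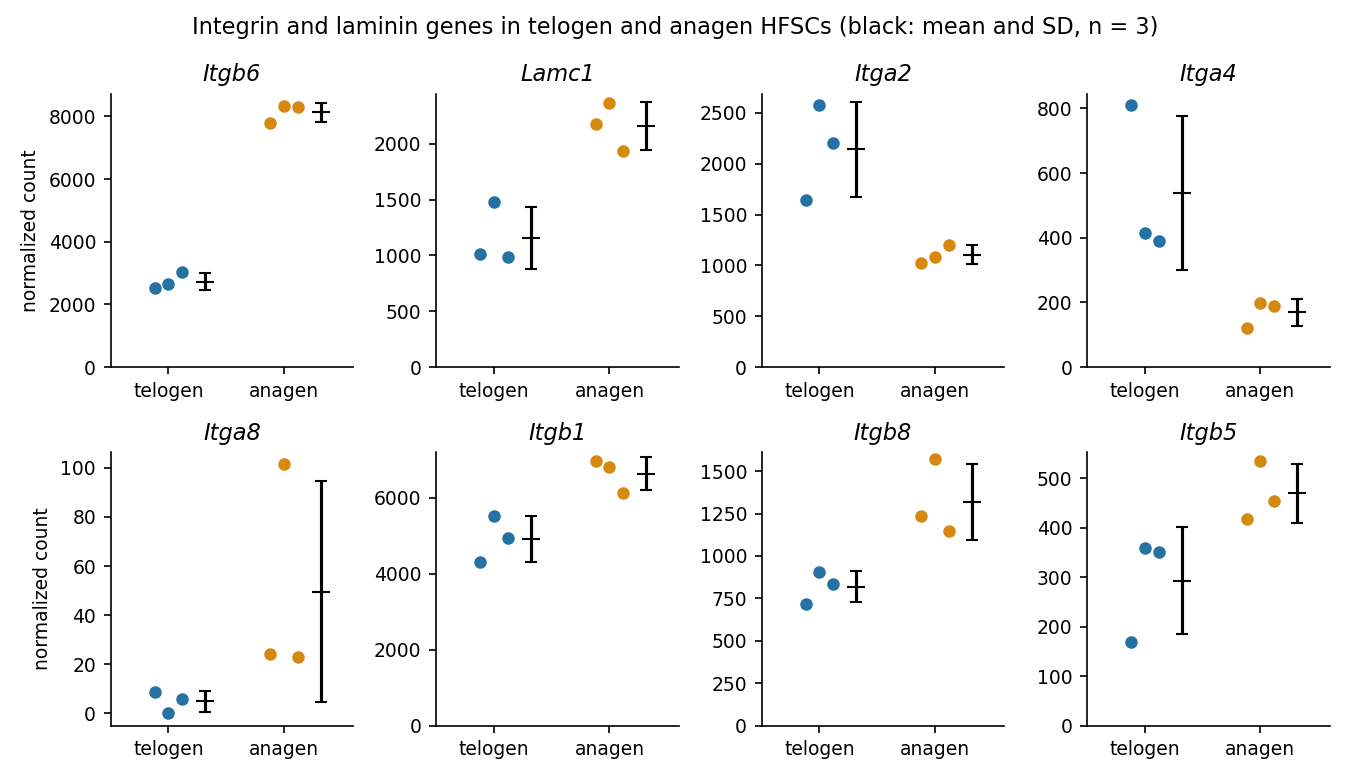
Normalized counts of 8 genes in the 3 telogen and 3 anagen libraries (points), with mean and SD in black, each panel on its own axis from 0. The phases do not overlap in any panel, and Itgb6 shows the widest gap relative to its spread.

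Lamc1, the gamma1 chain, rose in anagen. It had 1017, 1477 and 983 normalized counts in telogen libraries and 2175, 2365 and 1932 in anagen libraries. No telogen library reached an anagen library, and the log2 fold change was 0.92 (SE 0.22, adjusted p = 0.0205), or 1.89-fold. Lamc1 lies at chr1:153218922-153332786 on the minus strand. Its call did not hold without the intensity trend (adjusted p = 0.0924) or when anagen 1, anagen 2, anagen 3 or telogen 3 was left out, where the adjusted p was 0.0934, 0.104, 0.0530 and 0.0580.

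The beta and alpha chains that could join gamma1 showed no call. Lamb1, the beta1 chain, had 320.1, 95.7 and 317 normalized counts in telogen libraries and 759, 384 and 307 in anagen libraries. The groups overlapped through anagen 3, and the log2 fold change was 1.06 (SE 0.49, adjusted p = 0.185). Lama5, an alpha chain of the epidermal basement membrane, had 2288, 490.5 and 627 in telogen and 534, 679 and 894 in anagen. Telogen 1 alone was high, and the log2 fold change of −0.37 (adjusted p = 0.653) became 0.31 (adjusted p = 0.510) without it. Lamb2, the beta2 chain, had 251, 179 and 913 normalized counts in telogen libraries and 345, 303 and 570.5 in anagen libraries, where telogen 3 alone was high. Its log2 fold change of 0.18 (adjusted p = 0.853) was 0.88 (adjusted p = 0.153) without telogen 3 and −0.051 (adjusted p = 0.969) without telogen 1. Lama4, the alpha4 chain, had 269, 74.4 and 106 in telogen and 144, 51.3 and 24.6 in anagen, which overlapped (log2 fold change −1.16, adjusted p = 0.284). Telogen 1 was its high library, and the log2 fold change was −0.63 without it and −0.57 without anagen 3.

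Itga2, which with beta1 forms a collagen receptor of keratinocytes, was lower in anagen. It had 1639, 2572 and 2208 normalized counts in telogen libraries and 1026, 1086 and 1204 in anagen libraries. The groups did not overlap, and the log2 fold change was −0.93 (SE 0.21, adjusted p = 0.0188), a 1.91-fold lower level. Itga2 lies at chr13:114833081-114932100 on the minus strand. The call was lost without the intensity trend (adjusted p = 0.0890) and without each library except telogen 1. The adjusted p was then 0.0954, 0.0827 and 0.0523 without anagen 1, 2 and 3, and 0.0510 and 0.0505 without telogen 2 and 3.

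Itga4, the alpha4 subunit, which binds VCAM-1 and fibronectin, was lower as well. It had 812, 414 and 390.0 normalized counts in telogen libraries and 123, 199 and 188 in anagen libraries. Telogen 1 was the high library, and no value overlapped. The log2 fold change was −1.61 (SE 0.35, adjusted p = 0.0144), or 3.05-fold lower, and −1.27 (adjusted p = 0.0316) without telogen 1. It did not hold without anagen 1 (adjusted p = 0.0749) or without the intensity trend (adjusted p = 0.0576). Itga4 lies at chr2:79255426-79333123 on the plus strand.

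Itga8, whose alpha8beta1 dimer is the receptor for nephronectin, was the gene past the study's thresholds. It had 8.68, 0 and 5.74 normalized counts in telogen libraries and 24.1, 101 and 23.1 in anagen libraries. All anagen values were higher, and anagen 2 was the high library. Itga8 passed the filter on low counts through the anagen libraries alone, so it could only come out higher in anagen. The log2 fold change was 3.30 (SE 0.98, unadjusted p = 0.00620, adjusted p = 0.0523). Leaving out single libraries gave log2 fold changes from 2.29 (without telogen 2) to 3.93 (without telogen 1), with adjusted p from 0.0372 (without telogen 1) to 0.225 (without anagen 2). Npnt, the gene of nephronectin, had 8257, 6895 and 7388 normalized counts in telogen libraries and 14140, 17168 and 17771 in anagen libraries, without overlap (log2 fold change 1.12, adjusted p = 0.00268). Itgae, the alphaE subunit of intraepithelial lymphocytes and not tested, is listed at 0 in each library of telogen and at 18.1, 15.2 and 7.27 normalized counts in anagen.

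The remaining tested alpha subunits did not pass. Itga3, which with beta1 binds laminins, had 645, 599 and 711 normalized counts in telogen libraries and 773, 645 and 651 in anagen libraries, a log2 fold change of 0.08 with a 95% interval from −0.39 to 0.55. Itga10, a collagen-binding subunit, had under 45 normalized counts in every hair cycle library (log2 fold change −2.12, adjusted p = 0.286, and −1.52 without telogen 1). Itga1, Itga2b, Itga5, Itga7, Itga9 and Itgam had log2 fold changes between −1.16 and 0.41 and adjusted p between 0.236 and 0.952. Without telogen 1 the log2 fold change of Itga1 went from −0.83 to −0.42, that of Itga5 from 0.07 to 0.55 and that of Itga2b from −0.54 to −1.35, and none of them passed.

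PRC2 is known to act at promoters rich in CpG. Promoter sequence is shown for genes called between the phases, by adjusted p or by the study's thresholds, whose window overlaps no annotated exon. These were Itgb6, Itga2 and Itga4. The RefSeq promoter table (GRCm38.p6) holds 22 of the 31 genes, and Lamc1 and Lama1 are among those without an entry. Printed is the stretch from 250 to 51 bases before the RefSeq start, 200 bases, 5′ to 3′ on the gene's strand, with each CpG in capitals.

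Itgb6, chr2:60722654-60722853 (minus): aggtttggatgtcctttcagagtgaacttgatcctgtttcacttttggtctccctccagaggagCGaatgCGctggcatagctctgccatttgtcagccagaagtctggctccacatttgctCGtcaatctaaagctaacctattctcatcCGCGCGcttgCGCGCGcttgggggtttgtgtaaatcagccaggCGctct
Itga2, chr13:114932151-114932350 (minus): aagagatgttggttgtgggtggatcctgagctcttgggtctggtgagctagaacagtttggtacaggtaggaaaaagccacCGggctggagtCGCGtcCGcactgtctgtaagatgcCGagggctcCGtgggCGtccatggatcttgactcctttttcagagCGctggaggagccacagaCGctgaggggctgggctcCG
Itga4, chr2:79255176-79255375 (plus): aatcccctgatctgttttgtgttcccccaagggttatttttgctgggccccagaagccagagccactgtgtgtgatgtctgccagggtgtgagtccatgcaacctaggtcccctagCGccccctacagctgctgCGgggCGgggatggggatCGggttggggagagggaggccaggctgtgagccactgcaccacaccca

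Itgb6, which rose, and Itga2, which fell, each hold 10 CpG in this window. A second RefSeq start of Itgb6, not printed, has 3 CpG in its window (chr2:60673744-60673943). Itga4 holds 4, the median of all 32851 promoters in the table. The GC box GGGCGG, searched on both strands, occurs once in the Itga4 window and in neither of the others, and in 24.6% of all promoters over the same window. The window of Itga8, the gene past the study's thresholds, overlaps an annotated exon and is not printed. It holds 14 CpG. These are descriptions of the sequence, and no binding or chromatin mark was measured in these files.

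Genes that work with these receptors were counted from lists in the same fit. Of 26 tested integrin tail and focal adhesion genes, 3 rose (Actn4, an actin crosslinker, by 1.32, Lims1 by 1.12 and Vcl, vinculin, by 0.74 on the log2 scale) and 5 fell, with the largest changes in Tns2 (−2.03), Tns1 (−0.96) and Rsu1 (−0.87). Of 19 basement membrane partners, 5 rose, with the largest changes in Fras1 (2.23), Hspg2 (perlecan, 1.89) and Col4a5 (1.81), and Grip1 fell (−0.78). Of 20 other ligands, 3 rose (Tgfb3 by 3.13, Tnc, tenascin C, by 1.56 and Npnt) and 4 fell, with the largest changes in Thbs1 (−2.62), Ccn2 (−2.60) and Postn, periostin (−2.32). Of 8 hemidesmosome genes Itga6 rose (0.97) and Dst fell (−0.69). All of these had an adjusted p under 0.05, a rule that called 11.6% of all genes, and the median log2 fold changes of the lists were 0.21, 0.26, −0.02 and −0.27.

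Other transcripts moved with the phase. All 5 proliferation genes were higher in anagen, with a median log2 fold change of 5.10. Of the 9 fibroblast and dermal papilla markers 5 were tested and 3 rose, Col1a1 (2.06), Dcn (4.05) and Vcan (4.59), and the 9 summed to 334 to 652 normalized counts in telogen and 558 to 788 in anagen, with Dcn at or under 1.47 in telogen. The leukocyte and Langerhans cell markers summed to 172 to 448 in telogen and 92.2 to 220.4 in anagen, with none of 6 tested called. The dendritic epidermal T cell markers summed to 158 to 234 in telogen and 249 to 356 in anagen, in the direction of Itgae, with none of 3 tested called. Of the 7 endothelial markers 2 were tested and only Tek was called (2.98), with Cdh5 and Cldn5 listed at 0 in every library. The endothelial markers summed to 73.9 to 139.6 in telogen and 133.2 to 167.9 in anagen. Of the melanocyte markers Dct rose (2.51) and Mitf fell (−1.85), and the markers summed to 2909 to 3285 in telogen and 1411 to 1495 in anagen. The part of these transcripts in the changes of the integrin and laminin genes was not tested.

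**Figure D3:**
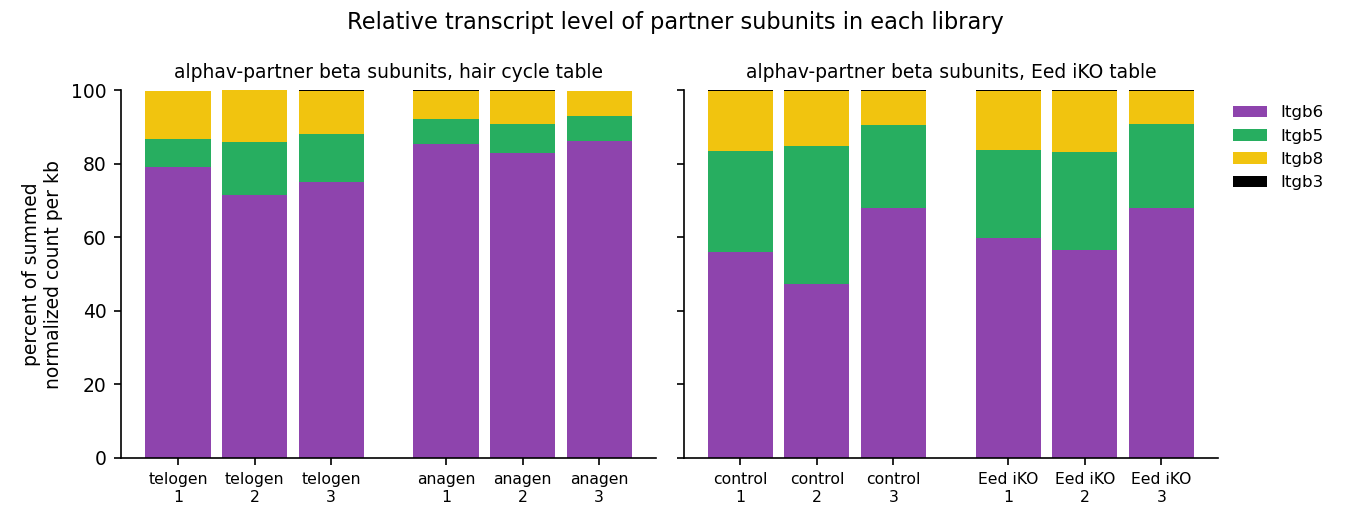
Share of each gene in the summed normalized count per kb, by library, for the alphav-partner beta subunits, in the hair cycle table (left) and the Eed iKO table (right). Itgb6 holds a larger share in every anagen library than in any telogen library, and the control and Eed iKO libraries overlap.

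In Eed iKO HFSCs, 0 of the 26 tested genes had an adjusted p under 0.05 in limma. By this rule 0.0267% of 15008 genes were called. At an unadjusted p under 0.05 there were 6 of the 26 genes, against 14.7% of all. On recovered reads DESeq2 gave an adjusted p for 19 of the 26 genes and called Itga10 (adjusted p = 0.0323), against 5.31% of all genes with a value. It gave none for the other 7, which include Itgb7, Itga11 and Lama1. On the same reads edgeR called 0 of the 26 and 0.0333% of all. At the study's thresholds 4 genes passed, where 1.75% of all genes did (0.826% higher and 0.926% lower): Itgb7 and Itga11 were higher, and Itga10 and Lama1 lower. All 4 had low counts. Itgb7 and Itga11 passed the filter on low counts through the Eed iKO libraries alone. Their direction, here and in the overlap count that follows, was thus set by the filter. Control and Eed iKO libraries did not overlap for 5 genes (Itga11, Itgb1 and Itgb7 higher, Itga9 and Lama1 lower), against 20.2% of all (10.2% higher and 10% lower). As many tested genes were higher as lower, 13 each, with a median log2 fold change of −0.0032.

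No gene of high level was called in Eed iKO HFSCs. In the 14 genes with a mean over 500 normalized counts in both groups the log2 fold changes ran from −0.26 to 0.37, with adjusted p from 0.267 to 0.982. Their 95% intervals lay between −0.83 and 0.76, that is, between a 1.78-fold lower and a 1.70-fold higher level. Itgb1 was at the upper end. It had 11776, 10879 and 14278 normalized counts in controls and 15380.3, 17032 and 14997 in Eed iKO. Every Eed iKO library was above every control, and the log2 fold change was 0.37 (SE 0.14, unadjusted p = 0.0263 and adjusted p = 0.267 in limma).

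Itgb6 had 6178, 4214 and 8338 normalized counts in controls and 6476, 6369 and 8839 in Eed iKO. The groups overlapped, and the log2 fold change was 0.25, with a 95% interval from −0.27 to 0.76. Lamc1 had 6129, 6572 and 6467 in controls and 6147, 5940.2 and 6803 in Eed iKO (log2 fold change −0.02, interval −0.31 to 0.26). Itga2 had 11408, 8153 and 9783 in controls and 7799, 9111 and 8509 in Eed iKO. It overlapped, with a log2 fold change of −0.20 (interval −0.53 to 0.14). Itga4 had 1134, 1306 and 951 in controls and 837, 1206 and 822 in Eed iKO, again with overlap (log2 fold change −0.26, interval −0.76 to 0.24).

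For Itgb6, Lamc1 and Itga4 the interval in Eed iKO did not reach the estimate between telogen and anagen, and for Itga2 it stopped at −0.53 against −0.93. These genes were picked by their hair cycle call, and the hair cycle estimates have intervals of their own. That of Itga2, −1.40 to −0.46, overlaps its interval in Eed iKO. The comparisons share no library, and the difference between them was not tested. Itga3 had 9182, 11088 and 15271 normalized counts in controls and 9458, 9779 and 11208 in Eed iKO (log2 fold change −0.19). Itgav had 11889, 11804 and 10998 in controls and 11603, 13896 and 11614 in Eed iKO (0.09). Both overlapped.

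The laminin chains of high level overlapped between Eed iKO and control HFSCs. Lamb2 had 2781, 3394 and 4065 normalized counts in controls and 4507, 3487 and 4259 in Eed iKO (log2 fold change 0.27, adjusted p = 0.506). Lama5 had 4356, 6496 and 6577 in controls and 6782, 4453 and 6379 in Eed iKO (0.02, adjusted p = 0.982). Lamb1 had 837, 493 and 733 in controls and 698, 761 and 780.0 in Eed iKO (0.15, adjusted p = 0.823). The share of Itgb6 among the alphav partners was 56.2%, 47.4% and 68.0% in controls and 59.9%, 56.7% and 67.9% in Eed iKO. The shares overlapped between the groups.

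**Figure D4:**
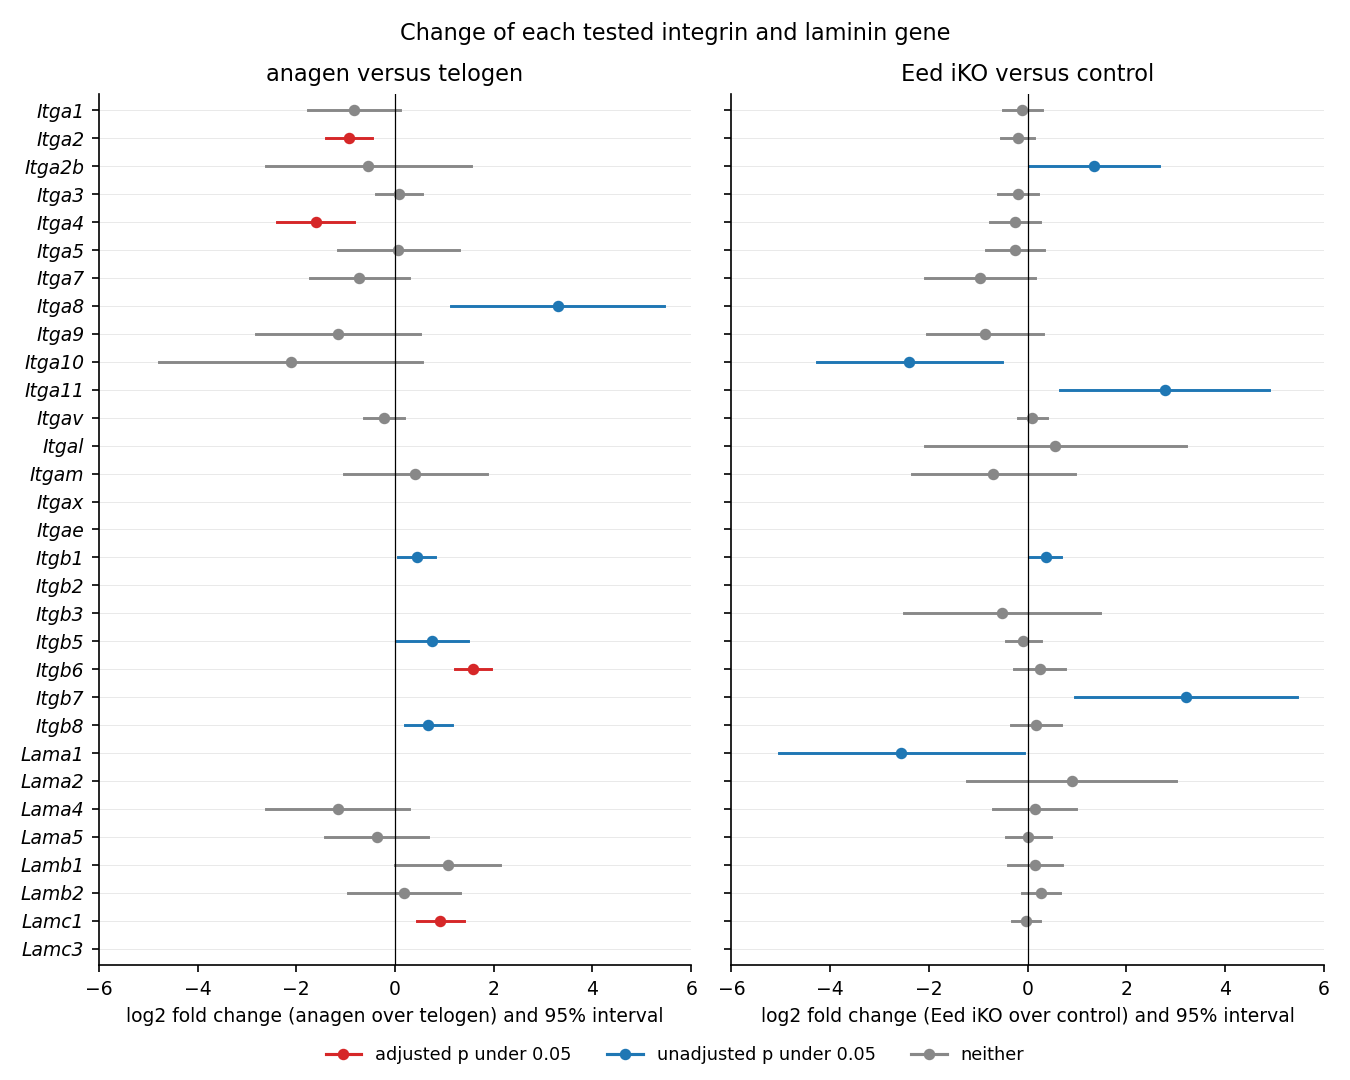
Log2 fold change and 95% interval of each tested gene, anagen over telogen on the left and Eed iKO over control on the right, coloured by adjusted and unadjusted p in limma. Red intervals, with an adjusted p under 0.05, appear only in the left panel (Itgb6, Lamc1, Itga2 and Itga4), and the widest intervals belong to genes of few reads.

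Itgb7, the beta subunit of the lymphocyte integrins alpha4beta7 and alphaEbeta7, had 3.47, 5.42 and 0 normalized counts in controls (5, 5 and 0 reads) and 32.3, 30.5 and 20.8 in Eed iKO (30, 23 and 21 reads). The groups did not overlap, and the log2 fold change was 3.21 (SE 1.01, unadjusted p = 0.00931, adjusted p = 0.181). It was 2.41 without control 3, the library with no read, and at most 3.75 without any other library. Itga11, a collagen-binding subunit known from fibroblasts, had 0.694, 5.42 and 5.44 in controls and 23.7, 18.6 and 45.5 in Eed iKO, at most 46 reads in a library. It did not overlap either, and its log2 fold change was 2.78 (SE 0.95, adjusted p = 0.215). Without Eed iKO 3 its unadjusted p was 0.0751.

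Itga10 had 36.1, 160.3 and 258 normalized counts in controls and 8.602, 23.9 and 43.5 in Eed iKO. The highest Eed iKO library was above control 1, so the groups overlapped, and the log2 fold change was −2.40 (SE 0.85, adjusted p = 0.225). It ran from −3.22 (without control 1) to −1.80 (without Eed iKO 1) when single libraries were left out. Lama1, the alpha1 chain of embryonic basement membranes, had 21.5, 36.8 and 48.1 in controls and 0, 11.95 and 14.8 in Eed iKO, where Eed iKO 1 had no read. The groups did not overlap, and the log2 fold change was −2.56 (SE 1.12, adjusted p = 0.323). Without Eed iKO 1 the log2 fold change was −1.28, and 2 genes passed the thresholds in place of 4. On recovered reads Lama1 missed the p threshold. Its log2 fold change was −1.99 in DESeq2 (unadjusted p = 0.121) and −1.97 in edgeR (unadjusted p = 0.0941). Itgb7, Itga11 and Itga10 stayed past the study's thresholds in both.

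**Figure D5:**
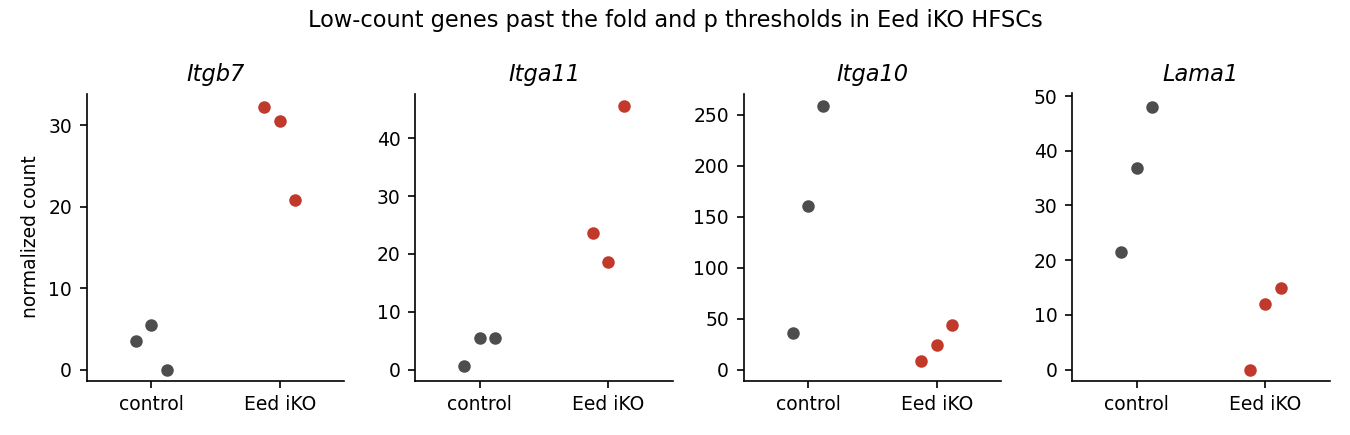
Normalized counts of Itgb7, Itga11, Itga10 and Lama1 in the 3 control and 3 Eed iKO libraries (points), each panel on its own axis. All values of Itgb7, Itga11 and Lama1 are under 50, and in Itga10 the groups overlap.

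Itga2b (alphaIIb, known from platelets) had 48.6, 25.997 and 86.1 normalized counts in controls and 175, 134 and 79.1 in Eed iKO, with overlap (log2 fold change 1.34, adjusted p = 0.326). Itga7, a laminin-binding subunit known from muscle, had 280.3, 253 and 92.5 in controls and 103, 104 and 81.1 in Eed iKO, also with overlap (−0.97, adjusted p = 0.401). Itgb2, the beta subunit shared by leukocyte integrins, had no read in controls and 0, 15 and 6 reads in Eed iKO, and was not tested. Itga8 had 0, 10 and 2 reads in controls and 27, 5 and 10 in Eed iKO and was not tested.

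Several leukocyte and Langerhans cell markers had higher values in Eed iKO, as Itgb7 did, while the summed markers of dendritic epidermal T cells, the resident lymphocytes of mouse epidermis, were lower. Of the 13 markers 9 were tested, 4 passed the study's thresholds and all 4 were higher (Cd207, Csf1r, Coro1a and H2-Ab1), none at an adjusted p under 0.05, and the median log2 fold change of the 9 was 2.06. Their sum was 274 to 555 normalized counts in controls and 570.4 to 1226 in Eed iKO. The T cell markers found in the table summed to 391 to 728 in controls and 206 to 309 in Eed iKO, with 0 of 3 tested past the thresholds or at an adjusted p under 0.05 and a median log2 fold change of −0.57. Cd207, the Langerhans cell marker langerin, was at 0 in all controls and at 18.3, 13.3 and 23.7 in Eed iKO, and the pan-leukocyte marker Ptprc had 45.1, 63.9 and 78.0 and then 106, 58.4 and 73.2. Cd207 thus passed the filter on low counts through Eed iKO alone and could only come out higher. The count of markers past the thresholds and the median over the tested markers include it. The fibroblast and dermal papilla markers summed to 1689 to 3285 in controls and 1337 to 1945 in Eed iKO, with none of 4 tested called at the thresholds. The proliferation genes summed to 1393 to 3789 in controls and to 10258, 9898 and 1066 in Eed iKO. The part of these transcripts in the values of Itgb7, Itgb2 and Itga11 was not tested.

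Of the related lists, 0 genes had an adjusted p under 0.05 in Eed iKO: 0 of 8 hemidesmosome genes, 0 of 27 focal adhesion genes, 0 of 19 basement membrane partners and 0 of 21 other ligands. By an unadjusted p under 0.05 in limma they were 1, 4, 3 and 2, where 14.7% of all genes passed, and these counts are not read as particular to the lists. Itga6, the alpha6 subunit used for sorting, had a log2 fold change of 0.41 (adjusted p = 0.207).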

How the data were processed

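The normalized values were deposited by the authors as signal per gene: reads quantified with kallisto 0.42.5 on mm10 and scaled with DESeq2, per the labels, in 1 table per experiment. Columns of the authors' own log2 fold changes, scores and p-values (deposited, not used) were left out. Groups came from sample titles. For Eed iKO and control the study describes 3 biological replicates a group, from more than 1 litter. For the hair cycle it describes HFSCs sorted from several animals. Which litter or animals gave each library is not stated, so p-values measure the spread between these libraries. For all genes passing edgeR's filterByExpr (edgeR 4.0.16, count minimum 10), log2(normalized count + 1) was fitted with limma 3.58.1 (R 4.3.3) with an intensity trend and Benjamini-Hochberg adjustment. Whole reads were recovered for 100% of values in the Eed iKO table (tolerance 0.1 reads) and given to edgeR and DESeq2 1.42.0 as alternatives. The fit was tested on counts simulated at a set dispersion, with 200 genes changed by 2.5 (log2). At the study's thresholds 100% were found for Eed iKO (15315 genes) and 94% for the hair cycle (13592 genes), with 10 and 2 false calls. The changed genes were drawn only from genes above a set mean count. Itgb7, Itga11 and Lama1 in Eed iKO and Itga8 in the hair cycle lie below it, so the simulation does not cover such genes. Gene positions and lengths came from GENCODE, promoters from RefSeq.

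Named were genes with an adjusted p under 0.05 or past the study's thresholds, the 5 integrin subunits and 4 laminin chains of highest count per kb, and genes without overlap and an absolute log2 fold change over 1. From related lists, up to 3 genes in each direction with an adjusted p under 0.05 were named. Itgb5, Itgb8, Lama4, Lamb1, the leukocyte genes, Itga2b, Itga7, Itga9 and the other tested genes named outside this rule were added after their values were seen. The 31 genes and all lists were chosen with earlier results of these data known. A further gene was left out of the related lists and is not reported here.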

Additional observations from a re-analysis of the deposited data

How the results depend on the processing

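Depth limits the genes of few reads: the 4 genes past the thresholds in Eed iKO rest on at most 285 reads in a library, and the hair cycle table gives no depth. Itgb6 kept an adjusted p under 0.05 in anagen under all alternatives. The alternatives were a pseudocount of 0.1, no filter, a replicate block, TMM scaling, no intensity trend, leaving out each library, and, for Eed iKO, DESeq2 and edgeR. Over the named genes, 211 of 221 values for Eed iKO and 146 of 165 for the hair cycle kept direction and side of the threshold. Direction reversed in 9 and 5, and 13 hair cycle values lost the call. All 13 belong to Itga2, Lamc1 and Itga4. No gene was called by adjusted p in Eed iKO, and only Itgb6 and these genes in the hair cycle, so the other values had no call to lose. The cause was not tested.

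Replicate numbers are shared, but same-numbered libraries do not deviate together (correlations 0.0390, 0.0684 and 0.193 for Eed iKO and −0.0348, −0.0711 and −0.0294 for the hair cycle), so the numbers were not taken as pairs. With a replicate block, the genes called stayed at 4 by thresholds and 0 by adjusted p for Eed iKO, and at 1 and 4 for the hair cycle. Called list genes under the block were 2 of the focal adhesion and 2 of the basement membrane list for Eed iKO, and 1 hemidesmosome and 4 focal adhesion genes for the hair cycle. Over all 15008 genes of Eed iKO limma called 4 and edgeR 5, and DESeq2 called 673 of the 12665 to which it gave a value, at an adjusted p under 0.05. DESeq2 called 1 of the 19 integrin and laminin genes with a value, 2 focal adhesion and 2 basement membrane genes for Eed iKO. In the hair cycle, no filter gave 2 genes past the thresholds, a median log2 fold change of 0.30 and 1 hemidesmosome gene. No intensity trend gave 1 gene, 0 hemidesmosome, 1 focal adhesion and 3 basement membrane genes at an adjusted p under 0.05.

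Leaving out single libraries gave, for Eed iKO, 2 to 4 genes past the thresholds (2 without Eed iKO 1), 0 to 1 focal adhesion genes (1 without Eed iKO 3) and a median log2 fold change of −0.11 to 0.042. For the hair cycle it gave 1 to 2 genes past the thresholds, 1 to 6 at an adjusted p under 0.05 (1 without anagen 1, 2 without anagen 2, anagen 3 or telogen 3), a median of −0.095 to 0.31, and 0 to 2 hemidesmosome, 2 to 8 focal adhesion, 2 to 5 basement membrane and 7 to 8 ligand genes. Log2 fold changes that reversed ran, for Eed iKO, from −0.18 to 0.20 (Lama5), −0.0067 to 0.49 (Itgb6), −0.13 to 0.44 (Lama4), −0.071 to 0.31 (Lamb1), −0.36 to 0.0044 (Itga3) and −0.080 to 0.018 (Lamc1), and for the hair cycle from −0.0041 to 0.15 (Itga3), −0.29 to 0.88 (Lamb2) and −0.80 to 0.31 (Lama5).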
